A study of Mus musculus with 15 samples.

Results

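The inner medulla of the mouse kidney was compared with the outer medulla across all genes of a bulk RNA-seq table, with regulators, secreted factors, receptors and stress genes described in depth. The comparison used 10 of the 15 libraries of the series, 5 from microdissected inner medulla (IM 1 to 5) and 5 from outer medulla (OM 1 to 5), chosen by their region labels. The other 5, from cortex, entered the fit as a further group and are given beside the contrast. All groups came from wild-type mice of the strain labelled C56BL/6N, male, with no treatment named, and the labels do not state whether the 5 libraries of a region are separate animals. The p-values accordingly reflect how much these libraries vary among themselves, and that variation may be technical.

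The inner medulla is the deepest zone of the kidney. It holds collecting ducts, thin limbs of the loop of Henle, the ascending and descending vasa recta and an unusual interstitial stroma, and its papilla is covered by a surface epithelium that faces the urine. Urine is concentrated there, so its cells live with high salt and urea, low oxygen tension and low blood flow, and they are known for storing organic osmolytes and heat shock proteins. The outer medulla contains the straight part of the proximal tubule and most of the thick ascending limb, which are rich in mitochondria and transporters.

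Values are TPM (transcripts scaled to a common library total), which account for transcript length, so that levels of different genes can be set side by side. Means are given ± SD over 5 libraries. Differences are IM minus OM on the log2(TPM + 1) scale, with the standard error of the limma fit and p-values adjusted over all 15052 genes tested, and a gene rose or fell where the adjusted p was under 0.05. Folds are ratios of mean TPM. Recovered reads came to between 16264486 and 25195553 per OM or IM library, and 1 TPM stood for 20.6 to 30.6 reads of the median gene.

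Markers of other cells were read first, since bulk tissue cannot tell fewer cells of a type from less RNA per cell. All 10 proximal tubule markers were lower in IM, and their summed level was 94970 to 102471 TPM in OM against 12082 to 40891 in IM, so proximal tubule transcripts were present in every IM library. The 9 thick ascending limb markers summed to 3665 to 6992 TPM in OM and to 3236 to 6641 in IM, with overlap; of 8 tested, 3 rose and 1 fell on TPM, and 2 rose and 5 fell after scaling. Slc12a1, the salt carrier of that segment, stood at 906 ± 176 TPM in OM and 958 ± 336 in IM (adjusted p = 0.923) and was lower after scaling (difference -0.52, adjusted p = 0.0494). Thick ascending limb transcripts were thus also present in every IM library. IM levels are those of the dissected pieces, and whether these held outer medullary tissue was not tested. The 8 collecting duct markers summed to 1004 to 1398 TPM in OM and 8726 to 13815 in IM, with Aqp2, the vasopressin-regulated water channel, at 465 ± 66.8 and 7743 ± 1685 TPM. The 8 urothelium markers summed to 11.7 to 50.4 TPM in OM and 189 to 310 in IM, and the 8 endothelial markers to 414 to 526 and 1606 to 2105 TPM. The 8 interstitial fibroblast markers summed to 98.8 to 141 TPM in OM and 148 to 220 in IM, without overlap on this scale. The 7 adipocyte markers summed to 185 to 298 TPM in OM and 373 to 897 in IM, also without overlap. Of 6 adipocyte markers tested, 2 rose and 0 fell on TPM, and 0 were called after scaling. A pair of libraries stood apart. OM 1 had the highest urothelial sum of OM (50.4 TPM, against 11.7 to 20.5 in the other 4). It also had the lowest thick ascending limb sum (3665 TPM, against 5858 to 6992). Its collecting duct (1398 TPM, against 1004 to 1249), endothelial (526 TPM, against 414 to 470) and proximal tubule (102471 TPM, against 94970 to 101349) sums were the highest of OM. IM 4 had the lowest proximal tubule sum of IM (12082 TPM, against 26982 to 40891) and the highest adipocyte sum (897 TPM, against 373 to 478). Counts over all genes without both libraries are given in the closing section.

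Most of the transcriptome differed. On TPM, 9999 of 15052 genes (66.4%) were higher in IM and 2592 (17.2%) lower, so that 83.7% were called; at least 2-fold, 21.6% were higher and 6.04% lower. The median gene lay 0.51 higher in IM on the log2 scale. In OM the 10 most abundant genes took 13.8 to 14.6% of all TPM and Kap, an androgen-regulated proximal tubule transcript, alone took 8.22 to 9.15%; in IM the 10 took 5.98 to 8.46% and Kap 1.05 to 3.69%. After median-ratio scaling, which sets the typical gene level between libraries, 38.1% were higher and 36.3% lower, 74.5% in all, and the median was 0.03. The 5740 genes higher after scaling were all higher on TPM too, the 2592 genes lower on TPM were all lower after scaling, and 1151 genes called higher on TPM were called lower after scaling. Counts are therefore given on both scales, since many rises on TPM, including some larger than the 0.51 of the median gene, do not hold after scaling. The IM libraries lay all above OM for 58.2% of genes and all below for 13.2% on TPM, and for 30.1% and 29.2% after scaling.

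Large changes were counted in each of the 4 classes examined. At least 2-fold, 32 of 93 tested regulators rose and 12 fell on TPM, 61 of 176 secreted factors rose and 17 fell, 71 of 179 receptors rose and 14 fell, and 80 of 226 stress genes rose and 11 fell, against 21.6% and 6.04% of all genes. After scaling, the 2-fold counts were 22 and 14 for regulators, 39 and 27 for secreted factors, 46 and 20 for receptors and 41 and 29 for stress genes, against 9.61% and 10.8% of all genes. No test of these classes as sets was made. The list counts that follow stand against 66.4% of all genes higher and 17.2% lower on TPM, and 38.1% and 36.3% after scaling.

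**Figure D1:**
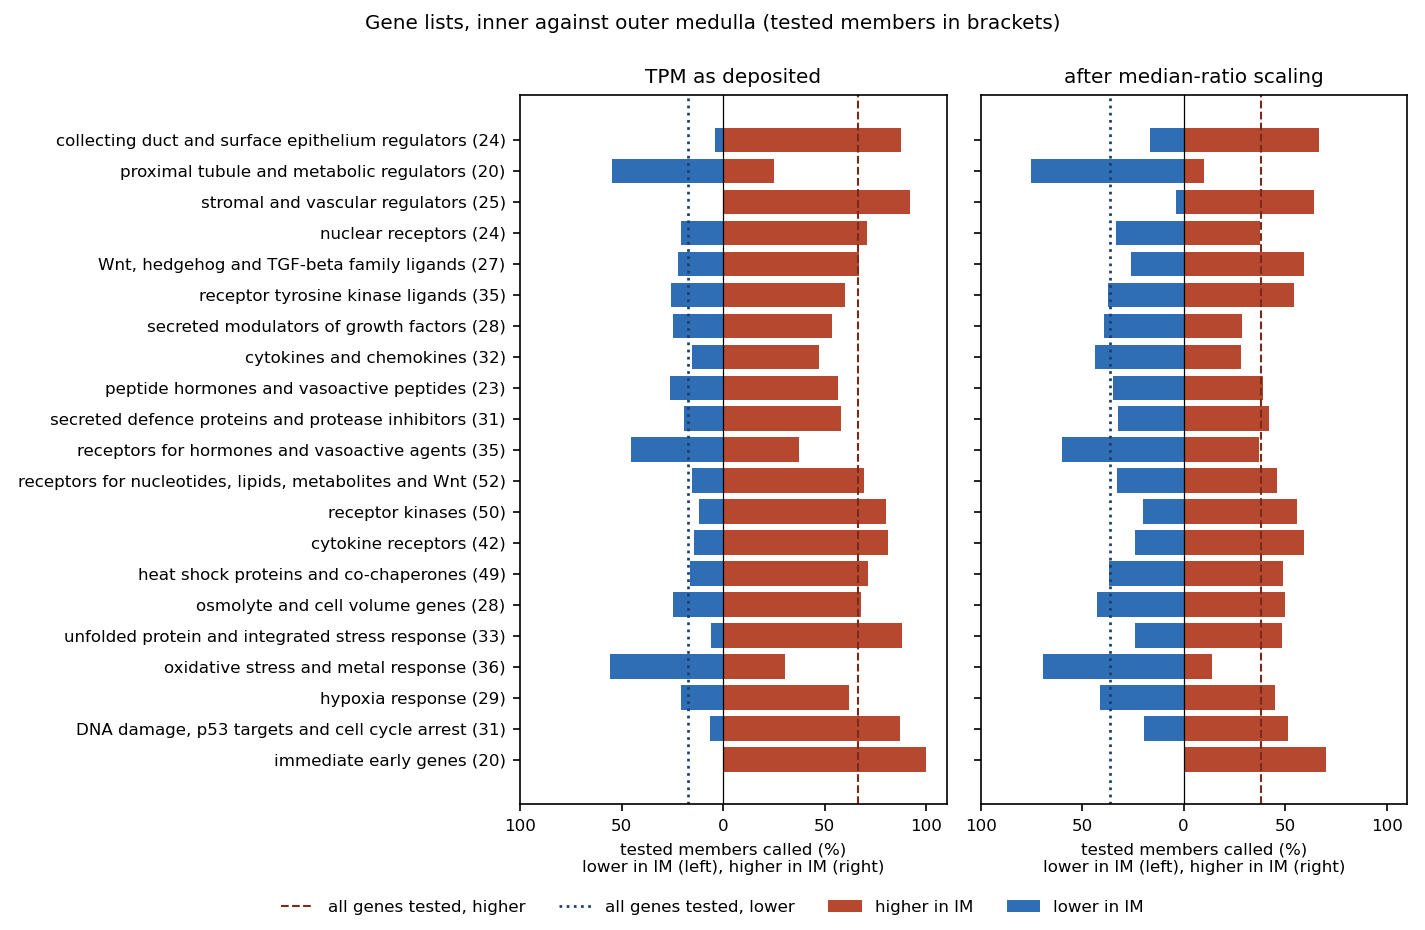
Each row is a gene list, with the number of its tested members in brackets, and bars give the percent of those members called higher (right) or lower (left) in inner medulla, on TPM and after median-ratio scaling. The lines mark the same percents over all genes tested, 66.4% and 17.2% on TPM and 38.1% and 36.3% after scaling. Regulators of proximal tubule and oxidative stress genes lean to the left on both scales, and immediate early genes have no bar to the left on either.

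Transcription factors of the collecting duct and surface epithelium rose in most cases. Of 24 tested members, 21 rose and 1 fell on TPM (87.5% and 4.17%, against 66.4% and 17.2% of all genes), and 16 rose and 4 fell after scaling; the median log2 difference was 2.07 and 1.60, against 0.51 and 0.03 for all genes. Elf5, an ETS factor of secretory and ductal epithelia, read 5.61, 1.76, 3.62, 2.2 and 2.73 TPM in OM 1 to 5 and 83.2, 127, 93.6, 111 and 93.3 TPM in IM 1 to 5. The zones did not overlap, with OM 1 the highest of OM, and the difference was 4.67 ± 0.20 (adjusted p = 1.68e-11) on TPM and 4.16 after scaling. Tbx3, a T-box repressor, rose 21.4-fold from 3.31 ± 0.863 to 70.7 ± 14.7 TPM, and Klf5, a Krüppel-like factor of collecting duct and other lining epithelia, rose 26.4-fold from 1.51 ± 0.399 to 39.9 ± 9.78 TPM. Foxq1, a forkhead factor, rose from 6.13 ± 1.13 to 80.7 ± 34.2 TPM and varied more between IM libraries than the others.

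Factors that specify the ureteric lineage in the embryo were also higher. Pax2 rose from 25.2 ± 1.95 to 260 ± 70.1 TPM, Gata3 from 8.71 ± 1.15 to 78.1 ± 11.7 TPM, and Ehf, an epithelial ETS factor, from 15.4 ± 1.64 to 172 ± 25.4 TPM. In these 3 genes every IM library lay above every OM library, as in 58.2% of all genes on TPM. The member that fell was Emx1, a homeobox factor, from 57.3 ± 11.1 to 12.6 ± 3.98 TPM (difference -2.15 ± 0.23, adjusted p = 4.45e-07). Collecting duct and urothelium markers rose beside these factors, as given above, and their part in the rises was not tested.

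Regulators of proximal tubule and metabolism went the other way. Of 20 tested, 5 rose and 11 fell on TPM, and 2 rose and 15 fell after scaling. Hnf4a, the nuclear receptor that drives proximal tubule maturation, read 283, 347, 368, 404 and 387 TPM in OM 1 to 5 and 114, 84.5, 122, 49.1 and 132 TPM in IM 1 to 5. The zones did not overlap, and IM 4, the library with the lowest proximal tubule sum, was also the lowest for Hnf4a. Its difference was -1.90 ± 0.21 (adjusted p = 9.18e-07), inside the range of the 10 proximal tubule markers, which ran from -2.71 for Cyp2e1 to -1.69 for Slc7a13. Maf fell from 65.9 ± 7.66 to 15.9 ± 3.21 TPM and Nr1h4, the bile acid receptor FXR, from 117 ± 37 to 36.9 ± 17.9 TPM. The fall of the markers accompanied these values, and its part was not tested. Among the 5 rises were factors of the distal nephron, Tfap2b from 21.5 ± 3.46 to 47.3 ± 6.01 TPM and Pou3f3 from 91.6 ± 14.4 to 167 ± 14.5 TPM.

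Stromal and vascular regulators rose in 23 of 25 tested members on TPM, with none lower, and in 16 after scaling, with 1 lower. Erg, a factor that maintains endothelial identity, rose 3.6-fold from 10.4 ± 1.37 to 37.3 ± 2.63 TPM. The stromal factors Osr2, Prrx1 and Tcf21 rose to 23 ± 5.75, 5.23 ± 1.48 and 87.3 ± 18.7 TPM from 6.22 ± 0.59, 1.26 ± 0.307 and 45.7 ± 4.29 TPM. Hey1, a Notch target, rose from 0.839 ± 0.236 to 5.05 ± 1.07 TPM. The endothelial marker sum was higher in IM beside Erg. The fibroblast marker sum was also higher in every IM library than in any OM library on TPM, as given above, although of its 8 genes 3 rose and 2 fell on TPM and 2 rose and 4 fell after scaling. The part of these cells in the regulators' rises was not tested.

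Nuclear receptors were near the background, with 17 of 24 higher and 5 lower on TPM and 9 and 8 after scaling, but individual receptors differed strongly. The retinoic acid receptors Rarb and Rarg rose from 5.03 ± 0.632 to 34 ± 5.66 TPM and from 13 ± 1.17 to 50.3 ± 8.71 TPM. Thra, a thyroid hormone receptor, rose from 76 ± 5.01 to 176 ± 22.5 TPM. The vitamin D receptor Vdr fell from 131 ± 16.7 to 39.1 ± 9.85 TPM, and so did Nr1h3, the oxysterol receptor LXR alpha, from 68.3 ± 6.93 to 31.3 ± 8.41 TPM. Nr2f6, an orphan receptor, read 117 ± 14.9 TPM in OM and 105 ± 15.2 in IM, which did not pass on TPM (adjusted p = 0.182). After scaling it was lower (difference -0.69, adjusted p = 1.23e-05). Cortex levels were below those of OM for Rarb (2.35 TPM) and Rarg (6.98 TPM) and above OM for Vdr (155 TPM).

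Among secreted factors, several Wnt ligands rose and 1, Wnt5b, fell. These lipid-modified proteins act over short distances on Frizzled receptors, and Wnt7b from the ureteric epithelium is needed for a renal medulla to form in the mouse. Wnt4 read 2.72, 0.926, 1.03, 1.32 and 1.43 TPM in OM 1 to 5 and 72, 109, 99.3, 101 and 98.9 TPM in IM 1 to 5, a 64.5-fold ratio of means. Wnt7b read 7.94, 7.63, 8.5, 8.1 and 7.69 TPM in OM and 81.3, 155, 142, 147 and 121 TPM in IM. IM 1 was the lowest IM library for both genes, and OM 1 the highest OM library for Wnt4, yet no library of one zone reached the other. Differences were 5.31 ± 0.16 (adjusted p = 4.98e-13) and 3.83 ± 0.14 (adjusted p = 2.87e-12). Wnt9b, the ureteric bud signal of the embryo, rose from 2.1 ± 0.352 to 75.4 ± 13.7 TPM, Wnt5a from 8.24 ± 1.67 to 43.1 ± 6.23 TPM and Wnt10a from 0.26 ± 0.0988 to 7.35 ± 3.31 TPM. Wnt5b fell from 7.13 ± 0.87 to 3.57 ± 0.377 TPM (difference -0.83, adjusted p = 3.61e-07).

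Over the whole list of Wnt, hedgehog and TGF-beta family ligands, 18 of 27 rose and 6 fell on TPM, close to the background, and 16 rose and 7 fell after scaling, above the 38.1% of all genes. The 6 that fell were Wnt5b, Ihh, Bmp6, Bmp7, Gdf10 and Gdf11, and neither the BMP nor the hedgehog members fell as a whole. Bmp6, a regulator of iron hormone production in liver, fell from 35 ± 4.97 to 11.4 ± 2.52 TPM, Gdf10 from 5.25 ± 0.823 to 1.59 ± 0.569 TPM and Ihh, Indian hedgehog, from 15 ± 2.86 to 5.97 ± 2.2 TPM. Bmp7 fell by 0.59 and Gdf11 by 0.56 on the log2 scale. The hedgehogs Shh and Dhh rose, from 0.611 ± 0.296 to 4.43 ± 0.499 TPM and from 0.58 ± 0.0786 to 1.92 ± 0.597 TPM, as did Bmp2 and Bmp3, from 1.11 ± 0.266 to 5.27 ± 0.94 TPM and from 1.1 ± 0.276 to 5.87 ± 0.784 TPM. Bmp4 was at 58.4 ± 5.89 TPM in OM and 56.7 ± 7.42 in IM, which did not pass on TPM (adjusted p = 0.651) and was -0.58 after scaling.

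Receptor tyrosine kinase ligands divided in the same way, with 21 of 35 higher and 9 lower on TPM and 19 and 13 after scaling. The share higher was 60% on TPM, below the 66.4% of all genes, and 54.3% after scaling, above their 38.1%. Pdgfa, a growth factor for stromal cells, read 20.2, 15.1, 16.1, 15.2 and 16.5 TPM in OM 1 to 5 and 94.3, 136, 121, 178 and 150 TPM in IM 1 to 5, with no overlap. Angpt2, the vessel-destabilising angiopoietin, rose from 18.1 ± 3.76 to 105 ± 11.1 TPM, and Efnb2, the ephrin of arterial endothelium, from 7.89 ± 0.94 to 42.3 ± 4.78 TPM. Fgf18 rose from 0.648 ± 0.545 to 8.83 ± 3.45 TPM. Egf, a product of the thick ascending limb and distal tubule, fell in the mean from 747 ± 199 to 365 ± 153 TPM (difference -1.08 ± 0.27, adjusted p = 0.00161). Its zones overlapped on TPM, since OM 1 was at 412 TPM and IM 1 and IM 3 at 566 and 488 TPM. Fgf1 fell from 265 ± 27.9 to 136 ± 31.9 TPM and Nrg1 from 5.12 ± 0.865 to 2.41 ± 0.637 TPM. Vascular endothelial growth factors did not follow Angpt2: Vegfa was lower, 152 ± 11.4 against 121 ± 24.5 TPM (adjusted p = 0.00852), and Vegfb was 74.5 ± 6.43 against 75.3 ± 8.52 TPM (adjusted p = 0.893), with -0.52 after scaling.

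Secreted modulators of these ligands included a family that moved both ways, the insulin-like growth factor binding proteins, which bind the growth factors in extracellular fluid. Igfbp5 read 232, 214, 286, 253 and 229 TPM in OM 1 to 5 and 1447, 1713, 1473, 1850 and 1141 TPM in IM 1 to 5. Igfbp4 read 585, 738, 608, 646 and 528 TPM in OM and 118, 106, 128, 80.9 and 154 TPM in IM. The order of the 2 genes was thus opposite in the 2 zones in every library, with Igfbp4 the higher in each OM library and Igfbp5 the higher in each IM library. Igfbp2 rose from 2.48 ± 4.43 to 77.7 ± 24.5 TPM, where the OM mean rested on OM 1 at 10.4 TPM against 0.358 to 0.66 in the other 4. Igfbp3 fell from 166 ± 12.8 to 53.1 ± 19.2 TPM and Igfbp1 from 14.3 ± 4.92 to 4.22 ± 1.51 TPM. The list as a whole had 15 of 28 members higher and 7 lower on TPM and 8 and 11 after scaling, so it did not lean upward.

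An antagonist of BMP signalling and an enhancer of Wnt signalling rose within that list. Nbl1, also called DAN, rose 13.5-fold from 12.7 ± 3.68 to 171 ± 27 TPM. Rspo3, an R-spondin, rose from 0.291 ± 0.186 to 12.5 ± 3.51 TPM, while its receptor Lgr4 stood at 63.7 ± 6.62 and 64.7 ± 7.33 TPM (adjusted p = 0.806), with -0.51 after scaling.

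**Figure D2:**
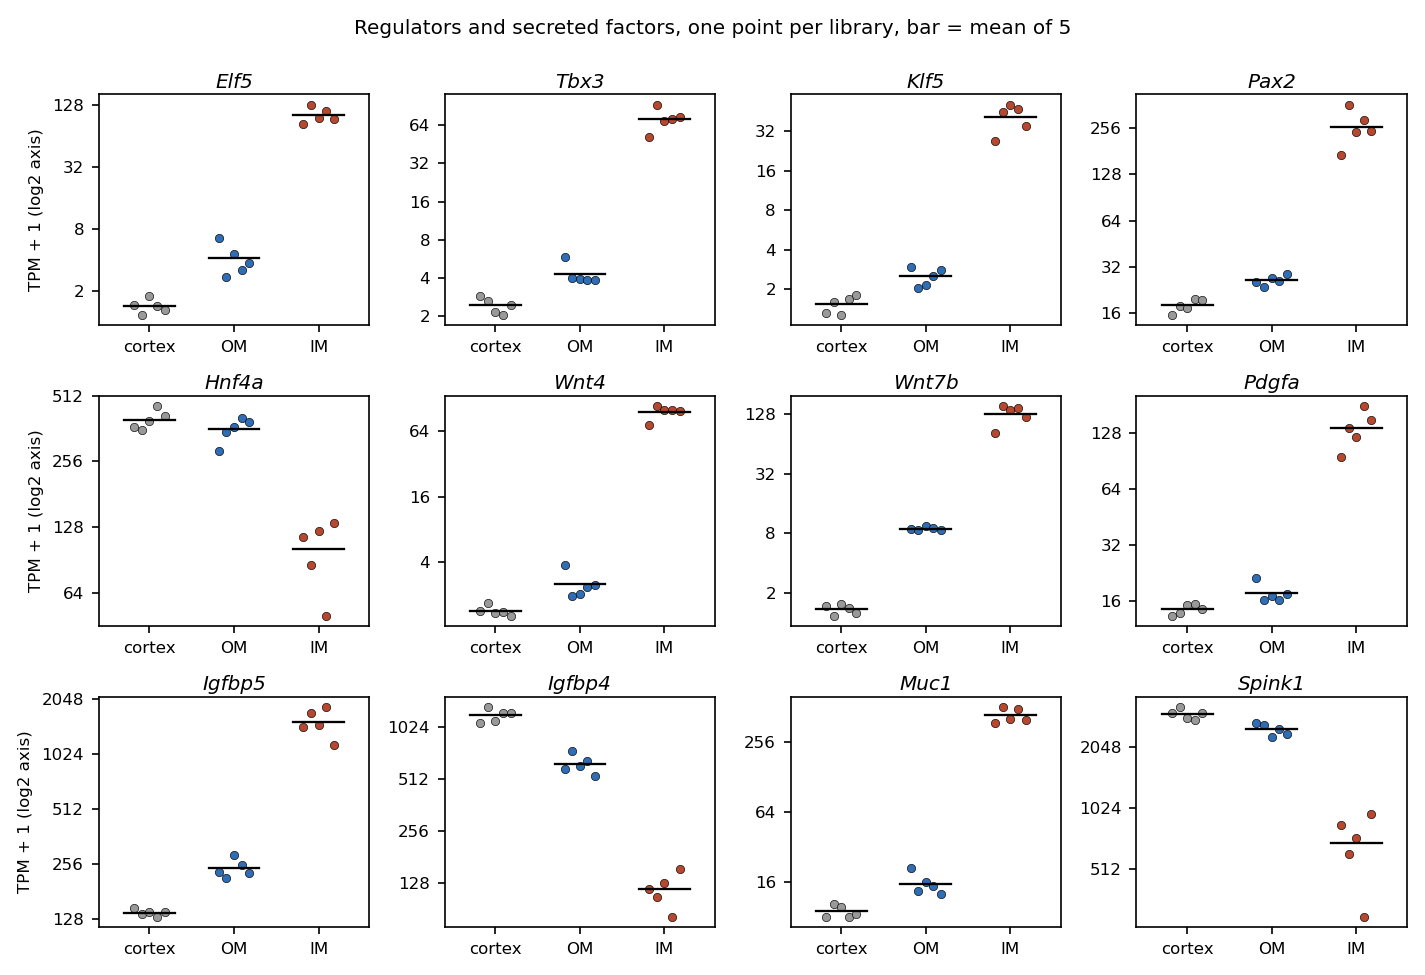
Levels of 12 regulators and secreted factors in TPM + 1 on a log2 axis, with 1 point for each cortex, outer medulla (OM) and inner medulla (IM) library and a bar at the mean of 5. In all 12 the IM points lie apart from the OM points. Hnf4a, Igfbp4 and Spink1 are lower in IM and the other 9 higher. The genes were picked for large changes or after their values were seen. Of all genes tested, 58.2% had IM all above OM and 13.2% all below on TPM.

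Cytokines and chemokines gave 15 of 32 higher and 5 lower on TPM and 9 and 14 after scaling. The shares higher, 46.9% on TPM and 28.1% after scaling, were below the 66.4% and 38.1% of all genes. The share lower after scaling, 43.8%, was above the 36.3% of all genes. Cxcl1, a neutrophil attractant, rose from 1.02 ± 0.426 to 15.4 ± 5.4 TPM, and Cxcl12, a stromal chemokine, from 75.8 ± 6.97 to 221 ± 32.7 TPM. Csf1, the macrophage growth factor, rose from 6.42 ± 1.12 to 14.5 ± 1.84 TPM and Cxcl16 from 44 ± 2.53 to 91.7 ± 10.2 TPM. Falls were seen in Ccl28, a mucosal chemokine, from 51.2 ± 14 to 20.5 ± 10.4 TPM, Cxcl14 from 62 ± 11.5 to 35.2 ± 11.9 TPM and the alarmin Il33 from 6.52 ± 0.968 to 3.77 ± 0.726 TPM. Of the 8 leukocyte markers 2 rose and 4 fell on TPM, and they summed to 417 to 525 TPM in OM and 296 to 525 in IM.

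Peptide hormones and vasoactive peptides included both large rises and large falls. Cck, cholecystokinin, a gut and brain peptide, read 35.5, 18.5, 21.7, 14.2 and 22.7 TPM in OM 1 to 5 and 395, 499, 481, 501 and 293 TPM in IM 1 to 5, without overlap (difference 4.24 ± 0.24, adjusted p = 5.63e-10). In cortex its mean was 0.464 TPM. Npy, neuropeptide Y, rose from 18.1 ± 6.07 to 112 ± 35.4 TPM, and its cortex mean was 0.701 TPM. Apela, a ligand of the apelin receptor, rose from 99.4 ± 21.9 to 545 ± 119 TPM and Stc2, a stanniocalcin, from 1.96 ± 0.31 to 7.87 ± 2.64 TPM. Components of the renin-angiotensin system fell: Ren1, renin, from 69.1 ± 16 to 16.6 ± 6.93 TPM and Agt, angiotensinogen, from 111 ± 16.8 to 46 ± 16.2 TPM. Guca2b, uroguanylin, fell from 1203 ± 73.6 to 403 ± 151 TPM. The list had 13 of 23 higher and 6 lower on TPM and 9 and 8 after scaling, close to the background on the second scale.

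Secreted defence proteins and protease inhibitors moved both ways. Of 31 tested, 18 rose and 6 fell on TPM (58.1% and 19.4%, against 66.4% and 17.2% of all genes), and 13 rose and 10 fell after scaling, so the list did not lean upward on TPM beyond all genes; the genes that follow are its largest changes. Muc1 and Muc20, membrane mucins of lining epithelia, rose from 14.4 ± 3.29 to 438 ± 63.4 TPM and from 9.14 ± 2.25 to 366 ± 43.1 TPM. Fcgbp, a mucus-associated protein, rose from 1.22 ± 0.867 to 121 ± 39.4 TPM, and Lcn2, the iron-sequestering lipocalin, from 8.36 ± 3.19 to 48.6 ± 10.6 TPM. All 7 tested urothelium markers also rose, and their part in these values was not tested. Spink1, a trypsin inhibitor, fell from 2510 ± 163 to 686 ± 256 TPM, Pigr, the polymeric immunoglobulin receptor, from 155 ± 43.2 to 51 ± 17.4 TPM and Cfb, complement factor B, from 320 ± 24.8 to 123 ± 16.7 TPM. Umod, uromodulin, the main urinary protein of the thick ascending limb, was at 3285 ± 901 and 2511 ± 792 TPM (adjusted p = 0.14); without OM 1 the difference was -0.60 and passed (adjusted p = 0.0137), and after scaling it was -0.94.

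Receptors for hormones and vasoactive agents were the only receptor list in which falls outnumbered rises on both scales, 16 against 13 of 35 on TPM and 21 against 13 after scaling. The rises were large. Npy1r, the Y1 receptor of neuropeptide Y, read 3.97, 3.55, 3.71, 3.03 and 3.66 TPM in OM 1 to 5 and 84.8, 177, 141, 113 and 130 TPM in IM 1 to 5. Its lowest IM library stood far above its highest OM library, and the difference was 4.79 ± 0.14 (adjusted p = 5.58e-13). Avpr2, the vasopressin receptor of the collecting duct, rose from 26.8 ± 5.08 to 241 ± 34.7 TPM, Ptger1, the EP1 prostaglandin receptor, from 48.5 ± 4.31 to 338 ± 77.1 TPM and Htr2b, a serotonin receptor, from 0.372 ± 0.21 to 6.32 ± 0.642 TPM. Ptger3, the EP3 receptor, was at 52.6 ± 11.4 and 61.4 ± 17.4 TPM, with zones that overlapped (adjusted p = 0.346).

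The falls included receptors with higher levels in cortex than in either medullary zone. Cckar, a cholecystokinin receptor, fell from 87.8 ± 8.21 to 24 ± 8.34 TPM, with a cortex mean of 97.9 TPM. Pth1r, the parathyroid hormone receptor that governs phosphate transport in the proximal tubule, fell from 392 ± 34 to 119 ± 35.8 TPM, and Adra2b, an alpha2 adrenergic receptor, from 69.9 ± 14.2 to 20 ± 7.67 TPM. Their log2 differences, -1.91, -1.77 and -1.83, lay within the range of the 10 proximal tubule markers; the part of those markers' fall was not tested.

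Receptors for nucleotides, lipids, metabolites and Wnt proteins rose in 36 of 52 and fell in 8 on TPM, and rose in 24 and fell in 17 after scaling. Adgrf1, an adhesion receptor, rose from 0.298 ± 0.126 to 77.3 ± 22.7 TPM, and Gprc5b, an orphan receptor induced by retinoic acid, from 9.1 ± 1.06 to 124 ± 27.5 TPM. Adora1, the adenosine A1 receptor, rose from 4.36 ± 0.856 to 60.9 ± 13.4 TPM and Fzd9, a Frizzled, from 0.132 ± 0.0866 to 9.64 ± 3.4 TPM. Receptors for intermediates of the citric acid cycle fell, Sucnr1, which senses succinate, from 40.7 ± 9.03 to 7.66 ± 2.91 TPM and Oxgr1, which senses 2-oxoglutarate, from 8.45 ± 1.49 to 2.88 ± 0.734 TPM. Lpar3, a lysophosphatidic acid receptor, fell from 16.6 ± 3.01 to 4.38 ± 1.41 TPM.

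Receptor kinases rose in 40 of 50 tested members and fell in 6 on TPM (80% and 12%), and rose in 28 and fell in 10 after scaling (56% and 20%). Epha2, an ephrin receptor of epithelia, rose from 3.95 ± 1 to 67.7 ± 13 TPM and Epha7 from 0.423 ± 0.186 to 6.68 ± 1.09 TPM. Bmpr1b, a BMP receptor, rose from 2.47 ± 0.491 to 26 ± 4.59 TPM. The FGF receptors divided: Fgfr2 rose from 8.3 ± 0.355 to 52.4 ± 6.17 TPM, while Fgfr3 fell from 31.2 ± 2.11 to 14.1 ± 2.81 TPM and Fgfr4, the receptor of endocrine FGFs in liver, from 44.6 ± 3.51 to 18.1 ± 3.62 TPM. Insrr, an alkali-sensing receptor of intercalated cells, fell from 13.6 ± 3.25 to 4.31 ± 0.875 TPM.

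Cytokine receptors rose in 34 of 42 and fell in 6 on TPM, and rose in 25 and fell in 10 after scaling. Epor, the erythropoietin receptor, read 8.45, 5.64, 5.49, 4.8 and 5.94 TPM in OM 1 to 5 and 106, 185, 134, 178 and 182 TPM in IM 1 to 5, a 25.9-fold ratio. Erythroid markers, among which Epor is not counted, did not pass for any of 5 genes on TPM and summed to 433 to 794 TPM in OM and 362 to 838 in IM. Lepr, the leptin receptor, rose from 4.76 ± 1.14 to 30.1 ± 4.57 TPM. Tnfrsf19 and Tnfrsf23, members of the TNF receptor family, rose from 0.259 ± 0.155 to 15.4 ± 2.19 TPM and from 0.955 ± 0.273 to 17.6 ± 3.15 TPM. Ghr, the growth hormone receptor, fell from 547 ± 62.5 to 197 ± 67.9 TPM, and Tnfrsf21 from 222 ± 36.8 to 77.2 ± 17 TPM.

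Ligands and their own receptors did not always move together. In 5 of the 8 pairs examined, Npy with Npy1r, Pdgfa with Pdgfra, Fgf7 with Fgfr2, Angpt2 with Tek and Edn1 with Ednrb, both genes were called higher in IM on TPM. Pdgfra, the stromal receptor of Pdgfa, rose from 12.4 ± 1.05 to 48.6 ± 8.93 TPM, Tek, the angiopoietin receptor of endothelium, from 19.3 ± 1.66 to 46.1 ± 7.75 TPM and Fgf7 from 0.148 ± 0.105 to 3.89 ± 1.06 TPM. Ednrb, an endothelin receptor, rose from 12.6 ± 1.83 to 38.1 ± 5.85 TPM, whereas the call on Edn1 (2.86 ± 0.778 to 5.28 ± 1.76 TPM, adjusted p = 0.00602) was lost after scaling (adjusted p = 0.288). In the other 3 pairs the ligand rose and the receptor fell: Cck with Cckar, Csf1 with Csf1r (68 ± 5.96 to 36.2 ± 8.46 TPM) and Apela with Aplnr (5.34 ± 0.878 to 3.5 ± 1.11 TPM, adjusted p = 0.00616). The pairs were picked after their values were seen.

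**Figure D3:**
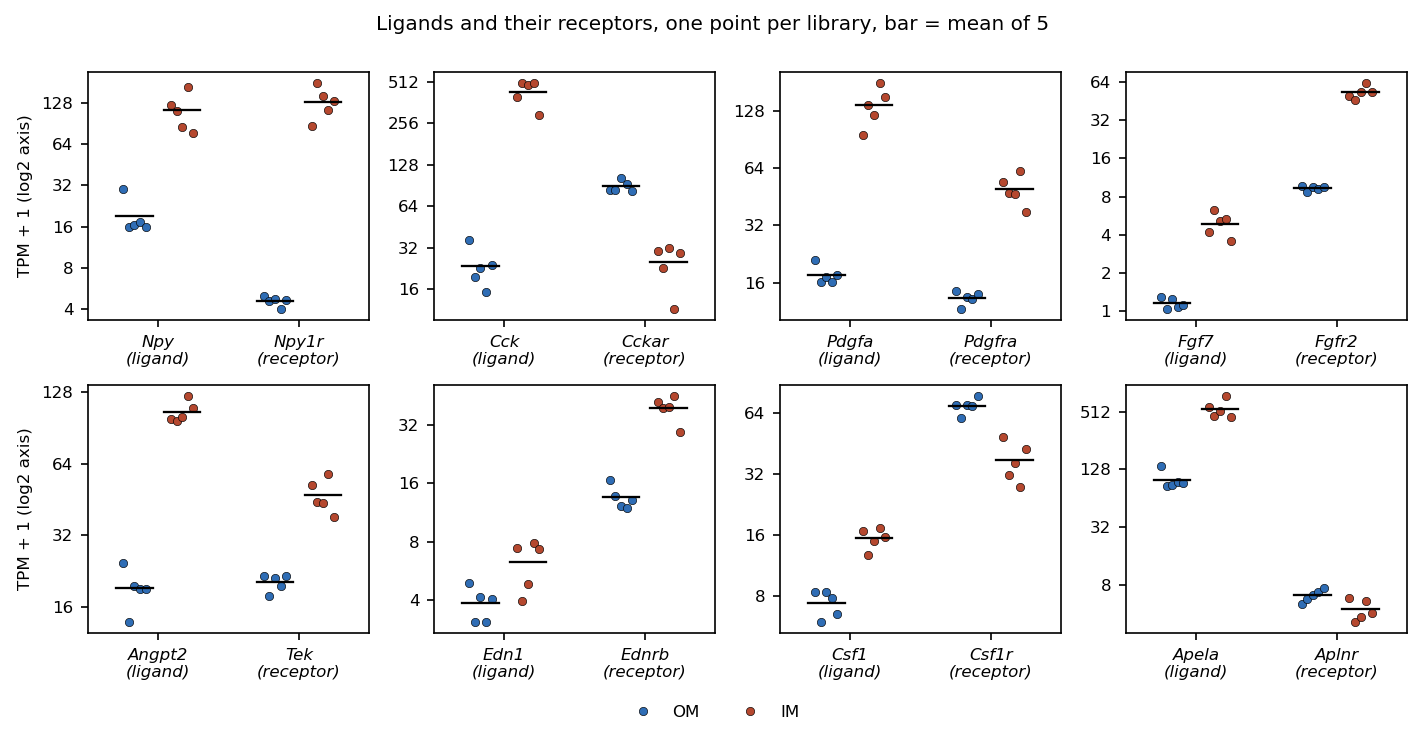
Levels of 8 ligands and a receptor of each in TPM + 1 on a log2 axis, with 1 point per library (outer medulla, OM, and inner medulla, IM) and a bar at the mean of 5. Both members sit higher in IM for Npy, Pdgfa, Fgf7, Angpt2 and Edn1 and their receptors, while the means of Cckar, Csf1r and Aplnr are lower in IM than in OM; the points of the zones overlap for Edn1 and Aplnr.

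Stress genes were read in 7 lists, beginning with heat shock proteins, the chaperones that hold and refold proteins. Of 49 tested members, 35 rose and 8 fell on TPM (71.4% and 16.3%), close to the background, and 24 rose and 18 fell after scaling. Inducible cytosolic chaperones were among the rises. Hspa1b, an inducible HSP70, read 19.1, 18.6, 14.4, 15.5 and 19.3 TPM in OM 1 to 5 and 285, 793, 553, 503 and 448 TPM in IM 1 to 5. Its near-identical neighbour Hspa1a read 10.5, 10.8, 9.44, 10.3 and 11.4 TPM in OM and 87.8, 223, 158, 158 and 145 TPM in IM, and reads of the 2 genes may have been divided between them by the authors' counting. IM 1 was the lowest and IM 2 the highest IM library for both. Hspb1, the small heat shock protein HSP27, rose from 28.7 ± 7.05 to 315 ± 77.9 TPM, Hspb2 from 10.8 ± 2.11 to 85.8 ± 11.4 TPM and Cryab, alpha B crystallin, from 313 ± 105 to 5533 ± 1261 TPM. Hsph1, an HSP110 that serves HSP70 as exchange factor, rose from 72 ± 3.58 to 537 ± 154 TPM, Hsp90aa1, the inducible HSP90, from 261 ± 14 to 566 ± 43.9 TPM and Hsf1, the heat shock transcription factor itself, from 25.5 ± 1.81 to 52.4 ± 6.37 TPM.

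The falls included constitutive and mitochondrial chaperones. They were not confined to these, since the cytosolic co-chaperone Dnaja1 and the small heat shock protein Hspb7 fell on TPM too, as did Dnaja3. Hspa8, the constitutive HSC70, read 1428, 1493, 1588, 1648 and 1523 TPM in OM 1 to 5 and 958, 852, 963, 842 and 924 TPM in IM 1 to 5, without overlap (difference -0.76 ± 0.06, adjusted p = 7.65e-09). The mitochondrial folding chamber, Hspd1 with its lid Hspe1, fell from 562 ± 17.2 to 316 ± 43.8 TPM and from 548 ± 63.5 to 334 ± 43.1 TPM. Hspa9, the mitochondrial HSP70, was lower by a smaller step, 535 ± 36.9 against 451 ± 32.9 TPM (difference -0.25, adjusted p = 0.00114), and the call was lost with quantile normalization (difference -0.10, adjusted p = 0.184). Fkbp5, a glucocorticoid-induced co-chaperone, fell from 47.3 ± 3.65 to 28.2 ± 6.05 TPM. Fkbp4 was at 251 ± 9.79 and 246 ± 13.1 TPM (adjusted p = 0.539), with -0.57 after scaling.

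Promoters of heat shock genes are known for the heat shock element, inverted repeats of GAA to which Hsf1 binds. They are shown here because members that carry the element moved in opposite directions. The sequences are the 250 bases before the annotated start of the gene, 5' to 3' on the gene's strand, from RefSeq (GRCm38.p6), with each match to GAANNTTC in capitals; this motif reads the same on both strands. The windows are chr17:34972157-34972406 (minus strand) for Hspa1a, chr17:34959239-34959488 (minus) for Hspa1b, chr5:135887669-135887918 (plus) for Hspb1 and chr1:55087933-55088182 (minus) for 1 of the 2 starts listed for Hspd1.
Hspa1a: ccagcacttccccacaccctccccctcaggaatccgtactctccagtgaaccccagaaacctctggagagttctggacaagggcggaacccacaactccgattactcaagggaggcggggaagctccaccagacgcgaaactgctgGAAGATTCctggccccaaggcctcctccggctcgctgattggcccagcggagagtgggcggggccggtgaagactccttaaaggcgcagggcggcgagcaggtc
Hspa1b: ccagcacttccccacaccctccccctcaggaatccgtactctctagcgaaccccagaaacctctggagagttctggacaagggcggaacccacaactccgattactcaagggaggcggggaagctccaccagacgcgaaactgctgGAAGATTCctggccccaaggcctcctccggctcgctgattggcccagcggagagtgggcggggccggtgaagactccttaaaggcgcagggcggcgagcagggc
Hspb1: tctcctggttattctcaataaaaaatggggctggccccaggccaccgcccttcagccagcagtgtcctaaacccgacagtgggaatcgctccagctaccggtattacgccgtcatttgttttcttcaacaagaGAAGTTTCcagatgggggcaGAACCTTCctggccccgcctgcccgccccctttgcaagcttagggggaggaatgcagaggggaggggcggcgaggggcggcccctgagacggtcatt
Hspd1: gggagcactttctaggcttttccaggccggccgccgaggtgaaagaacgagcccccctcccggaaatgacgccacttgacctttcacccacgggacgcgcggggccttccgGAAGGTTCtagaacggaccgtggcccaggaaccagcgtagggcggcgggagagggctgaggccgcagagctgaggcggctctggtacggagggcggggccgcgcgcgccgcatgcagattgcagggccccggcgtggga

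The Hspa1a and Hspa1b windows agreed at 247 of 250 bases. Of the list's 50 members, 40 matched a promoter in the RefSeq table, and 11 of them held GAANNTTC in at least 1 window, against 7.73% of all 27025 genes with a window. Of the 10 tested members with the motif, 4 rose and 3 fell on TPM, and 3 rose and 6 fell after scaling. Of the 29 tested members with a window and no match, 23 rose and 3 fell on TPM, and 14 rose and 9 fell after scaling. A longer form of 3 GAA units in alternating orientation was present in Dnajb6, Hspd1 and Hspe1 of the list and in 0.514% of all genes with a window. These are counts of genes and not of separate elements. The Hspa1a and Hspa1b windows are near copies, and the matches of Hspd1 (GAAGGTTC) and Hspe1 (GAACCTTC) are reverse complements that may be 1 site. A match describes letters in the window and does not show that a factor binds there.

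Genes of osmolyte handling and cell volume rose in 19 of 28 and fell in 7 on TPM, close to the background, and rose in 14 and fell in 12 after scaling. Nfat5, the transcription factor that switches on osmolyte genes under high salt, read 19.7, 15.8, 16.1, 17.3 and 16.1 TPM in OM 1 to 5 and 69.1, 74, 72.2, 85.7 and 75.8 TPM in IM 1 to 5, a 4.43-fold ratio. The spread within each zone was small against the step between them (difference 2.09 ± 0.07, adjusted p = 1.24e-12). Slc6a12, the betaine carrier, rose from 3.92 ± 0.999 to 22.9 ± 8.1 TPM and Slc12a2, the sodium-potassium-chloride carrier of cell volume recovery, from 12.9 ± 0.626 to 72.1 ± 13.1 TPM. The sorbitol pathway was divided between its 2 enzymes: Akr1b3, aldose reductase, which makes sorbitol, rose from 91.1 ± 33.2 to 3600 ± 944 TPM, and Sord, which breaks it down, read 1272, 1534, 1411, 1442 and 1407 TPM in OM 1 to 5 and 477, 356, 432, 204 and 492 TPM in IM 1 to 5. Gm6644, a copy of Akr1b3, stood at 94.5 ± 34.4 and 3733 ± 979 TPM, so reads may be shared between them. Csad, an enzyme of taurine synthesis, fell from 318 ± 38.8 to 159 ± 37.1 TPM and Aldh7a1, one of whose activities forms betaine, from 227 ± 15.6 to 99.6 ± 11.8 TPM. Slc6a6, the taurine carrier, also fell on TPM, opposite to Slc6a12, as did Wnk1, Cdo1 and Chdh.

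Unfolded protein and integrated stress response genes rose in 29 of 33 and fell in 2 on TPM (87.9% and 6.06%), and rose in 16 and fell in 8 after scaling. Nupr1, a small stress-induced nuclear protein, read 94.6, 37, 47.1, 44 and 41.4 TPM in OM 1 to 5 and 773, 1616, 1473, 1240 and 1688 TPM in IM 1 to 5. OM 1 was the highest of OM and IM 1 the lowest of IM, and the zones stayed apart. Ddit3, which encodes CHOP, rose from 36.7 ± 4.81 to 190 ± 36.7 TPM, and the ATF4 targets Asns and Trib3 from 5.64 ± 0.937 to 23 ± 7.73 TPM and from 1.31 ± 0.313 to 7.09 ± 3.75 TPM. Arms tied to the endoplasmic reticulum differed: Hspa5, the chaperone BiP, rose from 304 ± 23.3 to 467 ± 40.4 TPM but its call was lost after scaling (difference 0.08, adjusted p = 0.32). Herpud1 and Edem1, of the degradation arm, fell from 270 ± 22.4 to 175 ± 14.3 TPM and from 40.9 ± 5.64 to 20.2 ± 2.46 TPM.

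Oxidative stress and metal response genes leaned downward, with 11 of 36 higher and 20 lower on TPM and 5 higher and 25 lower after scaling, against 38.1% higher and 36.3% lower of all genes on the second scale. Gpx3, the secreted glutathione peroxidase made by the proximal tubule, read 15740, 17850, 16689, 17531 and 15209 TPM in OM 1 to 5 and 3851, 3104, 4060, 1956 and 5153 TPM in IM 1 to 5. IM 4 was again the lowest, as for the proximal tubule markers, whose part was not tested. Gpx1 fell from 2836 ± 374 to 1123 ± 233 TPM, Sod3, the extracellular superoxide dismutase, from 549 ± 35 to 179 ± 61.5 TPM and Hmox1, heme oxygenase 1, from 30.6 ± 5.67 to 16.8 ± 4.08 TPM. The regulators rose nonetheless: Nfe2l2, which encodes NRF2, from 44 ± 2.14 to 125 ± 15.5 TPM, its relative Nfe2l1 from 101 ± 13.4 to 240 ± 25.6 TPM and its inhibitor Keap1 from 26 ± 1.66 to 44.2 ± 4.61 TPM. Nqo1, a standard NRF2 target, was at 96.5 ± 4.69 and 99.4 ± 7.89 TPM (adjusted p = 0.593), with -0.49 after scaling. Gpx8, a peroxidase of the endoplasmic reticulum, rose from 17.7 ± 3 to 65 ± 7.02 TPM.

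Hypoxia response genes moved both ways. Hif1a, the oxygen-regulated subunit of HIF-1, read 27.2, 30.7, 30, 28.9 and 30.4 TPM in OM 1 to 5 and 143, 236, 204, 172 and 165 TPM in IM 1 to 5 (difference 2.58 ± 0.10, adjusted p = 5.73e-12). All IM libraries lay above all OM libraries. Epas1, which encodes HIF-2 alpha, was higher by 0.38 on TPM, 58.9 ± 3.32 against 77.2 ± 9.54 TPM, and lower after scaling, called both times (difference -0.16, adjusted p = 0.0384), so its direction depends on the scale. Among HIF targets, Pfkfb3, a driver of glycolysis, rose from 9.53 ± 0.628 to 62.9 ± 11.2 TPM and Ddit4, an inhibitor of mTOR, from 34.3 ± 8.02 to 115 ± 16 TPM. Others fell: Ndrg1 from 971 ± 171 to 330 ± 81.2 TPM, and the carbonic anhydrases Car9 and Car12 from 34.7 ± 3.13 to 13 ± 4.94 TPM and from 92.8 ± 15.8 to 28.3 ± 4.83 TPM. Ldha, lactate dehydrogenase A, stood at 809 ± 31.8 and 806 ± 31.9 TPM (adjusted p = 0.92), with -0.55 after scaling. The list had 18 of 29 higher and 6 lower on TPM and 13 and 12 after scaling, near the background on both scales.

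Genes of DNA damage, p53 and growth arrest rose in 27 of 31 and fell in 2 on TPM, and rose in 16 and fell in 6 after scaling. Cdkn2b, the inhibitor p15, rose 22.2-fold from 3.54 ± 0.596 to 78.5 ± 26.9 TPM. Cdkn1a, the inhibitor p21, read 7.91, 5.87, 5.67, 5.69 and 5.39 TPM in OM 1 to 5 and 26.6, 56.1, 37.1, 40.6 and 75.9 TPM in IM 1 to 5, a wide spread in IM with no overlap. Sesn3, a sestrin, rose from 2.49 ± 0.635 to 26.2 ± 5.2 TPM and Gadd45b from 11.2 ± 2.58 to 76.7 ± 25.1 TPM. Cdkn2c, the inhibitor p18, fell from 9.47 ± 1.86 to 5.21 ± 0.743 TPM, and Ccng1, cyclin G1, a p53 target, from 134 ± 11.5 to 114 ± 8.19 TPM. Gadd45g was at 82.3 ± 27.1 and 101 ± 44.4 TPM, with overlapping zones (adjusted p = 0.47).

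Immediate early genes, which answer stimulation and also tissue handling within minutes, rose in all 20 tested members on TPM and in 14 after scaling, with none lower on either scale. Without OM 1 and IM 4 the count was 19 on TPM. Fosl2, a Fos relative, rose from 6.53 ± 0.496 to 47.5 ± 7.46 TPM, Arc from 3.21 ± 0.509 to 28.4 ± 6.4 TPM, Maff from 2.62 ± 0.55 to 17.4 ± 2 TPM and Junb from 17.4 ± 6.02 to 59.8 ± 18.7 TPM. Fos itself stayed low, at 0.611, 0.288, 0.608, 0.797 and 0.8 TPM in OM 1 to 5 and 1.45, 2.35, 2.07, 2.15 and 3.43 TPM in IM 1 to 5. The order of harvest and the time to extraction are not given in the labels, and their part was not tested.

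**Figure D4:**
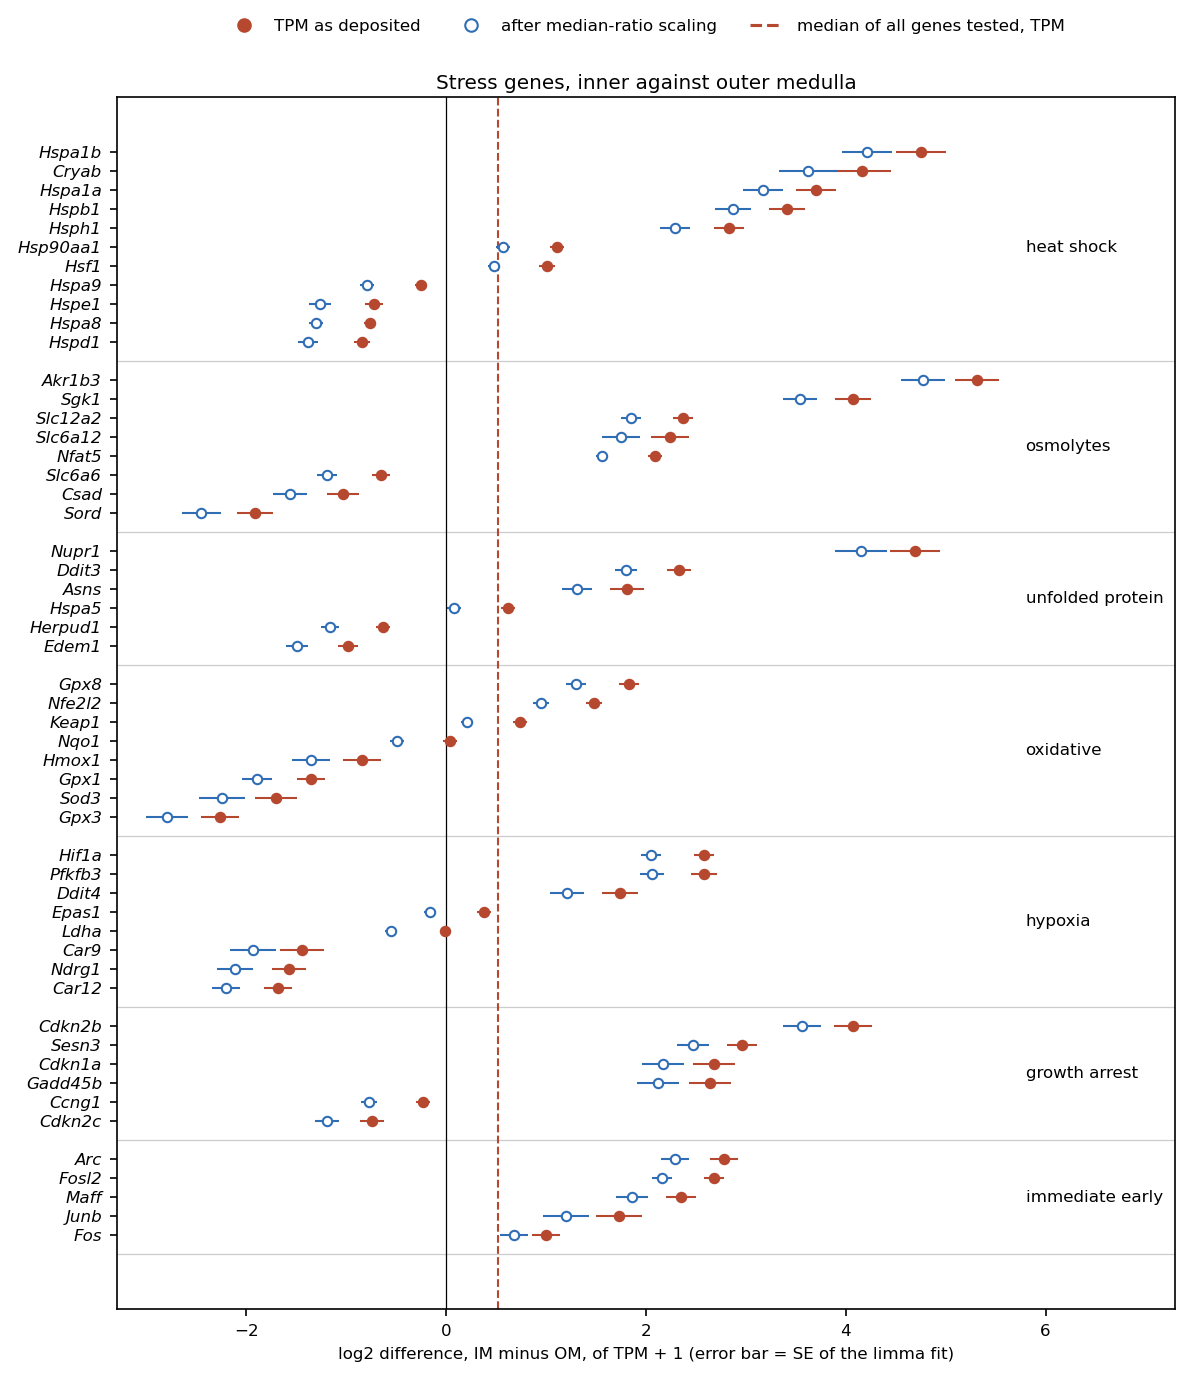
Log2 difference between inner and outer medulla for stress genes of 7 lists, with filled points for TPM as deposited, open points for median-ratio scaling and bars for the standard error of the limma fit; the dashed line is the median of all genes tested on TPM, 0.51. Hspa1b, Nupr1, Hif1a and Cdkn2b lie to the right of the line on both scales, while Hspa8, Hspd1, Sord, Gpx3 and Ndrg1 lie to the left of 0.

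Over all genes, the largest changes also included genes outside the lists of regulators, secreted factors, receptors and stress genes. Rasal1, a Ras-inactivating protein, rose from 0.651 ± 0.499 to 81.2 ± 16.6 TPM and Lamb3, a chain of epithelial laminin, from 1.57 ± 0.703 to 112 ± 27.9 TPM. Ndrg4 rose from 3.92 ± 1.84 to 178 ± 34.1 TPM, in the direction opposite to its relative Ndrg1, and Tmem238l rose from 1.11 ± 1.4 to 91.2 ± 11.6 TPM. In each of these 4 genes OM 1 was the highest OM library. The largest falls were those of genes of the distal convoluted tubule, the connecting tubule and type B intercalated cells. Slc12a3, the thiazide-sensitive salt carrier, read 193, 385, 327, 332 and 199 TPM in OM 1 to 5 and 30.4, 32.7, 32.1, 24.7 and 31.3 TPM in IM 1 to 5. The step between zones exceeded the wide spread within OM (difference -3.15 ± 0.19, adjusted p = 1.3e-09). The calcium-binding proteins S100g, Calb1 and Pvalb had differences of -3.35, -3.12 and -3.09, Slc26a4, which encodes pendrin, -3.17 and Tmem52b -3.01. In these 6 genes the cortex mean was higher than that of OM. No list of distal tubule markers was read, and whether cortical tissue in the OM pieces had a part in these levels was not tested. Other falls included Klk1, tissue kallikrein, from 2077 ± 456 to 264 ± 50.9 TPM, the organic anion carriers Slc22a8 and Slc22a6, from 158 ± 30.4 to 22.8 ± 7.05 TPM and from 360 ± 72.5 to 57.8 ± 15.8 TPM, and Gatm, an enzyme of creatine synthesis, from 332 ± 38.5 to 55.7 ± 16.1 TPM. The genes of this paragraph other than Ndrg1 were picked among those without overlap on TPM, so that separation was set by the choice. After scaling the IM and OM libraries did not overlap for any gene named in this paragraph. Of all genes, 30.1% then had IM all above OM and 29.2% all below.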

How the data were processed

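Bulk RNA-seq libraries of microdissected cortex, outer medulla and inner medulla were sequenced in paired-end mode, as the labels' protocols state. TPM values were deposited by the authors for 25030 genes in 15 libraries, and every library sums to 1000000 TPM. The aligner STAR and build mm9 appear in the submitters' processing notes. Which counter, annotation and strand option were used is not given in the sources used here. All 92 ERCC spike-in rows were at 0.

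A gene was tested if at least 5 libraries reached 1 TPM, which left 15052. The 5 libraries of a single zone can meet this filter, and the direction of genes that entered so was partly set by it. Values entered as log2(TPM + 1), and limma 3.58.1 (R 4.3.3, statmod 1.5.0) fitted all 15 libraries with zone as factor and trended, robust moderation. P-values were two-sided and Benjamini-Hochberg adjusted over all genes tested, with calls under 0.05. The fit was repeated after median-ratio scaling. The log2(TPM + 1) scale understates changes of low genes. Whole reads were recovered from the TPM steps for 100% of 19997 genes (within 0.001 of a whole number) and tested with voom; 5725 genes were called higher and 5519 lower with median-ratio library sizes.

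A simulated contrast of 14417 genes, of which only 199 were changed, was fitted as a check. The fit found 93% of the 2-fold and 100% of the 4-fold changes, and false calls made up 5.88%. In the real contrast 83.7% of genes were called on TPM, far more than were changed in the simulation. The 5.88% is therefore not an estimate of the false-call rate of the results reported here.

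The members and lists were chosen with earlier results of these data known. Named genes are, per list, up to 4 largest rises and 3 largest falls at 5 TPM or more, the most abundant member that did not pass, members against their list's majority, and the 15 largest rises and falls overall at 20 TPM or more without overlap. Outside this rule, chosen after their values were seen, are Ehf, Pax2, Gata3, Tcf21, Wnt5a, Fgf7, Igfbp5, Pdgfra, Tek, Lepr, Hsph1, Hspb2, Hsf1, Hsp90aa1, Nfat5, Hspa5, Nqo1, Hmox1, Epas1, Fos, Slc12a1, Kap, Aqp2, Aplnr, Pdgfb, Edn1, Gm6644, Slc7a13, Shh, Dhh, Bmp2, Bmp3 and the family members of the closing section. Some genes that the rule names are not reported here.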

Additional observations from a re-analysis of the deposited data

Results flagged for a closer look

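In 40 of 436 groups of 5 libraries, 1 library stood far from the other 4. The measure is the gap to the nearest other library divided by the range of the group, with a limit of 0.71. Chance flags about 1 in 20 groups. The library was OM 1 in 26 cases, OM 2 in 5, IM 4 in 4, IM 1 in 2, OM 5 in 2 and OM 4 in 1. The following values are that measure, the level of the far library and the range of the other 4.

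OM 1 was the highest of OM for Tbx3 (0.911, 4.85 against 2.86 to 3.03 TPM), Wnt4 (0.716, 2.72 against 0.926 to 1.43 TPM), Pdgfa (0.725, 20.2 against 15.1 to 16.5 TPM), Igfbp2 (0.970, 10.4 against 0.358 to 0.66 TPM), Rspo3 (0.748, 0.614 against 0.132 to 0.253 TPM), Npy (0.897, 28.9 against 14.8 to 16.2 TPM), Apela (0.817, 138 against 84.2 to 94 TPM), Muc20 (0.844, 13.1 against 7.63 to 8.49 TPM), Lcn2 (0.758, 13.9 against 6.31 to 8.15 TPM), Lepr (0.743, 6.73 against 3.96 to 4.67 TPM) and Akr1b3 (0.756, 148 against 67.7 to 87.4 TPM). It was also the highest for Nupr1 (0.825, 94.6 against 37 to 47.1 TPM), Cdkn1a (0.811, 7.91 against 5.39 to 5.87 TPM), Rasal1 (0.799, 1.53 against 0.316 to 0.56 TPM), Tmem238l (0.853, 3.58 against 0.282 to 0.765 TPM), Lamb3 (0.736, 2.78 against 1.03 to 1.49 TPM), Ndrg4 (0.827, 7.16 against 2.63 to 3.41 TPM), Krt18 (0.952, 34.4 against 16.9 to 17.8 TPM), urothelium markers (0.772, 50.4 against 11.7 to 20.5 TPM), smooth muscle markers (0.796, 191 against 88.6 to 109 TPM) and adipocyte markers (0.878, 298 against 185 to 198 TPM). It was the lowest of OM for Vdr (0.729, 103 against 133 to 144 TPM), Pth1r (0.726, 333 against 392 to 415 TPM), Il13ra1 (0.848, 18.1 against 21.9 to 22.6 TPM), Edem1 (0.719, 31.3 against 41.6 to 45.6 TPM) and Cldn2 (0.783, 291 against 337 to 350 TPM).

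In OM 2, the highest values of OM were those of Pigr (0.753, 230 against 124 to 150 TPM) and Nfe2l2 (0.810, 47.7 against 42.4 to 43.4 TPM). In OM 2, the lowest values of OM were those of Tnfrsf23 (0.752, 0.482 against 1.01 to 1.18 TPM), Epas1 (0.799, 53.1 against 59.3 to 60.8 TPM) and interstitial fibroblast markers (0.773, 98.8 against 131 to 141 TPM). In OM 5, the highest value of OM was that of Pdgfb (0.755, 17.8 against 14.2 to 15 TPM). In OM 5, the lowest value of OM was that of Insrr (0.721, 8.04 against 13.8 to 16.1 TPM). In OM 4, the highest value of OM was that of Hmox1 (0.712, 40.3 against 26.2 to 30.3 TPM). In IM 4, the highest value of IM was that of adipocyte markers (0.800, 897 against 373 to 478 TPM). In IM 4, the lowest values of IM were those of Pigr (0.784, 20.5 against 52.5 to 61.2 TPM), Csad (0.717, 95.4 against 165 to 193 TPM) and Edem1 (0.814, 15.9 against 20.8 to 21.9 TPM). In IM 1, the highest value of IM was that of Fkbp5 (0.817, 38.9 against 24.1 to 26.8 TPM). In IM 1, the lowest value of IM was that of Wnt4 (0.734, 72 against 98.9 to 109 TPM).

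Beside these levels, OM 1 had the highest summed urothelium, smooth muscle and adipocyte markers of OM. Its collecting duct and endothelial sums were also the highest of OM and its thick ascending limb sum the lowest. IM 4 had the highest adipocyte and lowest proximal tubule sums of IM. The part of these cells in the gene values was not tested.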

How the results depend on the processing

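The scale had the largest effect on counts. Over all genes, the counts higher, lower, at least 2-fold higher and at least 2-fold lower were 9999, 2592, 3256 and 909 on TPM; they were 5740, 5470, 1447 and 1623 after median-ratio scaling, 5543, 5427, 1391 and 1628 after quantile normalization, and 5725, 5519, 1899 and 2029 with voom on recovered reads and median-ratio library sizes. Genes whose IM libraries lay all above or all below OM numbered 8758 and 1994 on TPM and 4525 and 4400 after scaling. Regulators that rose numbered 66 on TPM and 43, 41 and 43 under these 3 settings, and those that fell 17 and 28, 29 and 28. Secreted factors that fell numbered 39 and 63, 65 and 63, and receptors that fell 36 and 58, 59 and 58. Stress genes that rose numbered 159 on TPM and 102 under both median-ratio settings, and those that fell 45 and 81.

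Of 208 genes followed across the settings, 6 changed sign after median-ratio scaling, with differences of -0.52 for Vegfb, -0.51 for Lgr4, -0.49 for Nqo1, -0.16 for Epas1, -0.52 for Slc12a1 and -0.23 for Aqp1. With quantile normalization they were -0.31 for Vegfb, -0.35 for Lgr4 and -0.20 for Nqo1, and with voom and median-ratio sizes -0.54, -0.52 and -0.50, with -0.16 for Epas1 and -0.23 for Aqp1. Calls were lost after median-ratio scaling for Hspa5 and Edn1, with quantile normalization for Hspa9 (-0.10), Epas1 (0.05), Kap (-0.34) and Edn1 (0.06), and with voom and recovered totals as library sizes for Aqp1 (0.14). Calls of a fall were gained after median-ratio scaling for Nr2f6 (-0.69), Bmp4 (-0.58), Umod (-0.94), Fkbp4 (-0.57) and Ldha (-0.55). The cause of these changes was not tested beyond the change of scale itself.

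Leaving out each OM or IM library in turn gave 9828 to 9971 genes higher, 2471 to 2620 lower, 3060 to 3455 at least 2-fold higher and 787 to 949 lower, with 8817 to 9041 and 2018 to 2218 without overlap. Lists then gave 63 to 66 regulators that rose and 15 to 17 that fell, 95 to 105 and 35 to 43 secreted factors, 119 to 125 and 31 to 36 receptors, and 157 to 160 and 43 to 45 stress genes. Without both OM 1 and IM 4 the counts were 9726, 2524, 3052 and 816, and after scaling (chosen after seeing the data) 5536, 5376, 1437 and 1550. The pseudocount 0.1 and the fit without a filter kept the call of all 208 genes. The voom fits were added after seeing the data. Planned voom and edgeR fits with TMM scaling were not run.

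With the replicate number as a block, 10088 genes were higher, 2648 lower, 3258 at least 2-fold higher and 915 lower. Same-numbered OM and IM libraries correlated at -0.0268 to 0.142 in their deviations from the zone means, over 0.1 in 3 of 5 pairs. Of the 5 OM libraries, 4 correlated best with the IM library of their number. The main fit did not pair libraries, because the labels do not say that the numbers mark an animal. Whether they do was not tested. Under the block none of the 208 genes followed changed its call.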

Other observations

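Gene families were taken by symbol and picked after their values were seen. Their counts stand against 66.4% of all genes higher and 17.2% lower on TPM, and 38.1% and 36.3% after scaling. The shares of claudins and collagen chains that rose on TPM were below that of all genes, and that of aquaporins was near it. Of 51 keratins, the intermediate filaments of epithelia, only 10 passed the filter and were tested. Of these, 9 rose with none lower on TPM, and 9 rose with 1 lower after scaling. The filter can be met by the 5 IM libraries alone, so the direction of keratins low in OM was partly set by it. Krt18 went from 20.9 ± 7.55 to 346 ± 50.5 TPM and Krt7 from 99.2 ± 9.68 to 349 ± 39.1 TPM. Laminin chains rose in 8 of 11 and fell in 2 on TPM (7 and 3 after scaling), with Lamb2 at 27.6 ± 1.57 and 123 ± 20.6 TPM. Claudins, the seals of tight junctions, rose in 9 of 16 and fell in 4 (8 and 6 after scaling). Cldn4 and Cldn8, of the collecting duct, rose from 20.9 ± 3.58 to 316 ± 43.5 TPM and from 52 ± 4.42 to 337 ± 33.9 TPM, and Cldn2, the cation pore of the proximal tubule, fell from 333 ± 24.1 to 94.2 ± 31.3 TPM. Col4a5, a basement membrane collagen, rose from 13.6 ± 0.716 to 83.9 ± 10.2 TPM, while collagen chains as a group gave 14 higher and 5 lower of 27 on TPM and 10 and 13 after scaling. Aquaporins rose in 6 of 9 and fell in 3 on TPM (5 and 4 after scaling), with mean levels of Aqp4 at 19.9 and 280 TPM in OM and IM. Aqp1, the water channel of the proximal tubule and descending limb, was higher by 0.31 on TPM and lower after scaling (difference -0.23, adjusted p = 0.0108).

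Subunits of mitochondrial complexes were lower. Of 37 genes with an Nduf symbol, most of them for complex I subunits, 1 rose and 28 fell on TPM. After scaling 0 rose and 37 fell. Their summed levels were 16178 to 18553 TPM in OM and 12631 to 15730 in IM. These counts and sums include Ndufa4 (2012 and 1374 TPM), which is now assigned to complex IV. Of 16 genes with an Atp5 symbol, most of them for ATP synthase subunits, 1 rose and 13 fell on TPM, and 0 rose and 15 fell after scaling. The gene that rose was Atp5s, which is not a subunit of the enzyme itself. Organic anion and cation carriers of the Slc22 family rose in 3 of 21 and fell in 16 on TPM (2 and 18 after scaling), summing to 4508 to 5159 TPM in OM and 850 to 1982 in IM. Cytoplasmic ribosomal proteins changed direction with the scale, 67 of 76 higher and 4 lower on TPM and 2 and 42 after scaling. Proximal tubule markers fell beside the mitochondrial and Slc22 genes, and their part was not tested.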
